A study of Mus musculus with 4 samples.

Results

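The tetraspanin family was followed across 2 populations that were sorted from mouse dermis, out of wound beds at day 5: CD301b macrophages, which carry the C-type lectin CD301b on their surface, and immune cells negative for F4/80, a surface protein used to mark mouse macrophages. Both came from male C57/Bl6 mice aged 7 weeks, with 2 libraries of each, and no treatment or genetic change is named for either. The members were all genes of the deposited transcript table whose symbol begins with Tspan and a number, together with Cd9, Cd37, Cd53, Cd81, Cd82, Cd151, Upk1a, Upk1b, Prph2 and Rom1. The rule used names only and gave 31 of the 24358 gene symbols in the table, with 50 transcripts. Cd63, another tetraspanin, was kept apart by the rule and is given below with the vesicle genes. One of the 31 symbols, Tspan2os, is an antisense RNA of the Tspan2 locus and not a tetraspanin, and it was listed at 0 FPKM in both populations.

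Tetraspanins are small proteins that cross the membrane several times and carry a large extracellular loop with a conserved Cys-Cys-Gly motif. They have few ligands of their own. They bind one another and partner proteins such as integrins, immunoreceptors, MHC class II and the protease ADAM10, and so gather them into patches of the plasma membrane and of secreted vesicles. In leukocytes they are known for roles in adhesion, migration, antigen presentation and cell fusion.

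Each population had 1 FPKM value per transcript (fragments mapped to a transcript, relative to its length and to the depth of sequencing, so levels can be compared between genes). FPKM was summed over the transcripts of a gene. No values per library were given, so the spread within a population could not be computed, and the FPKM values have no error. The labels do not say whether the libraries came from separate animals, so the p-values measure at most the spread between these libraries. Depth per library is unknown. A gene was called higher or lower in CD301b macrophages when at least 1 of its transcripts passed an adjusted p of 0.05 in the direction of the summed FPKM and none passed in the other direction. The adjusted p is a Benjamini-Hochberg adjustment, over all 16921 transcripts with a completed test, of the p-values by Cuffdiff that the authors' deposited table holds. It belongs to a transcript and not to the sum. In bulk RNA, fewer cells of a type and less RNA per cell cannot be told apart. The sort itself could be checked on RNA. Of 5 macrophage markers, all 5 were higher in CD301b macrophages (summed level 3131 against 1144 FPKM in the F4/80-negative cells), so the F4/80-negative cells were lower in macrophage RNA but not free of it. Adgre1, which encodes F4/80, followed the sort (557 FPKM in the macrophages, 151 in the F4/80-negative cells), whereas Mgl2, which encodes CD301b, was lower in the cells sorted for that protein (49.2 and 103 FPKM).

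Of 24 tetraspanin genes with a tested transcript, 4 were higher in CD301b macrophages, namely Tspan32, Cd37, Tspan4 and Cd151, and 3 were lower, namely Cd9, Tspan13 and Tspan2. The other 17 were not past the threshold. The share of higher members was 16.7%, beside 11.0% of all 13039 tested genes, and the share of lower members was 12.5%, beside 6.20% of all tested genes. At the level of transcripts, 7 of 35 tested member transcripts (20.0%) were past the threshold, beside 14.2% of all tested transcripts, and 12 of the 35 had an unadjusted p of at most 0.05. These shares are counts in a small family and were not compared by a test. The family as a whole was at nearly the same level in both populations, at 958 FPKM in the macrophages and 950 FPKM in the F4/80-negative cells. The median log2 fold, on the log2(FPKM + 1) scale, was 0.05 over the 23 members at 1 FPKM or more and 0.07 over the 11928 tested genes at that level. The sum changed little while its makeup differed. Cd9 supplied 31.1% of the family's FPKM in the F4/80-negative cells and 13.9% in CD301b macrophages, and Cd53 supplied 20.0% and 25.5%.

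**Figure D1:**
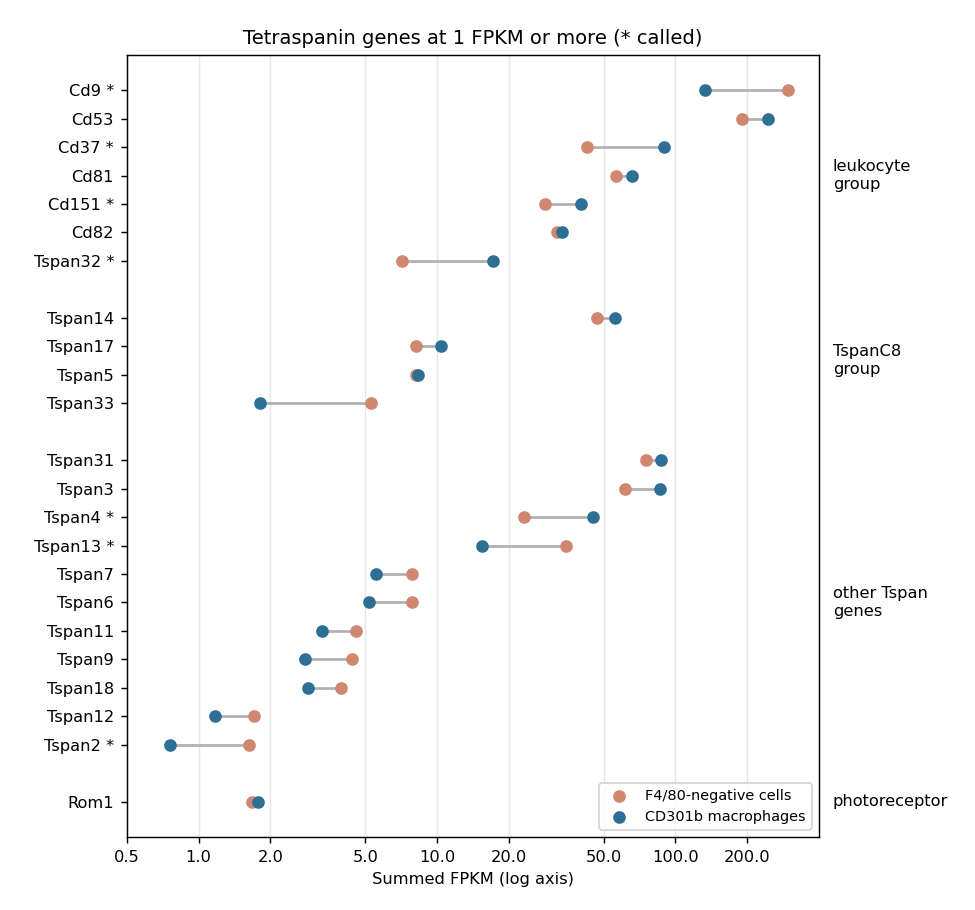
Summed FPKM (horizontal log axis) of the 23 tetraspanin genes at 1 FPKM or more in the F4/80-negative cells (orange points) and CD301b macrophages (blue points), 1 gene a line, grouped by role; a star marks a called gene and no error can be drawn. Cd9 is the highest member in the F4/80-negative cells at 295 FPKM, and Cd53 is the highest in CD301b macrophages at 244 FPKM.

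The promoters of the called genes with the largest folds are shown to let their starts be compared: Tspan32 and Cd37, which were higher in CD301b macrophages, and Cd9 and Tspan13, which were lower. Each sequence is the 250 bases before the transcript start that the RefSeq promoter table lists for the gene on GRCm38.p6, written 5′ to 3′ on the gene's strand. In Cd9 and Tspan13 this start is the outer end of the gene span. In Tspan32 and Cd37 it lies inside the span, which reaches further upstream, so part of the Tspan32 window and the whole Cd37 window lie within the gene. In Tspan32 and Cd37 capitals mark GAGGAA or its complement on the other strand, TTCCTC, a core of sites of the myeloid and B cell factor PU.1. In Cd9 and Tspan13 they mark CG dinucleotides.

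Tspan32 (chr7:143004796-143005045, + strand): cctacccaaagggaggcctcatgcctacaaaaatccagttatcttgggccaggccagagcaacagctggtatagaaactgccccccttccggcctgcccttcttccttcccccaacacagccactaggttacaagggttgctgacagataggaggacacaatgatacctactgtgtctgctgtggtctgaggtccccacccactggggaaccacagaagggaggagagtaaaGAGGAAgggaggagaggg
Cd37 (chr7:45238840-45239089, - strand): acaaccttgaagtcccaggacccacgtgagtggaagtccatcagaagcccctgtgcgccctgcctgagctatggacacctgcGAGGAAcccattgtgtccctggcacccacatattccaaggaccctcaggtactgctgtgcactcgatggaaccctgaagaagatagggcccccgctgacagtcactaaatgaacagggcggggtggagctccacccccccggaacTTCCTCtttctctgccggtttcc
Cd9 (chr6:125494761-125495010, - strand): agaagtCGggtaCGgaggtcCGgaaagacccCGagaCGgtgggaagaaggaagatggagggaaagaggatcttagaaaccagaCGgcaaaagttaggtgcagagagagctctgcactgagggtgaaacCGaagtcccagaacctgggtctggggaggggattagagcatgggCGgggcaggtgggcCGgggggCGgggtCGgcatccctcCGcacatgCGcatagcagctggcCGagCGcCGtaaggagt
Tspan13 (chr12:36042479-36042728, - strand): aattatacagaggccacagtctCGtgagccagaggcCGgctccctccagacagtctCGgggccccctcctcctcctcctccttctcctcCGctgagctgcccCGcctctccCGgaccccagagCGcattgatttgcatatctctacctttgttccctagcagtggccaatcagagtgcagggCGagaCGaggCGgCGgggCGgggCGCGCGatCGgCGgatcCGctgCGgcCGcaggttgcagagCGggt

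The promoters differed in CG content. The Tspan32 window held 1 CG dinucleotide and the Cd37 window 8, while the Cd9 window held 16 and the Tspan13 window 21. The median was 11 over the 39 promoter entries of the members and 6 over all 32851 entries of the RefSeq table. CG content did not follow the direction of the call at every start of the other called genes. Of the genes higher in CD301b macrophages, the 2 Tspan4 starts had 24 and 8 and the Cd151 starts had 12 and 4. The starts of Tspan2, which was lower, had 12 and 17. Which of these starts was in use was not tested. The PU.1-type core, searched on both strands, lay 18 bases before the listed start of Tspan32 and 168 and 23 bases before that of Cd37, in both genes inside the gene span. It was in neither the Cd9 nor the Tspan13 window. Over the 39 promoter entries of 29 symbols, 9 (23.1%) held the core, beside 23.3% of all entries, which is a share near that of all promoters. These entries include that of the antisense RNA Tspan2os. For 29 of the 39 entries the transcribed bases after the start were found in a transcript of the gene. The motif was chosen after the values of these genes were seen, and a match is not evidence of binding.

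Of the family, 7 members were grouped for known roles in leukocytes, and which cells supplied their RNA was not tested. They made up most of the family's RNA, with 652 FPKM in the F4/80-negative cells and 623 FPKM in the macrophages. All 7 were tested, 3 were higher in CD301b macrophages and 1 was lower, beside 11.0% and 6.20% of all tested genes. Without Cd9, the other 6 summed to 356 FPKM in the F4/80-negative cells and 490 FPKM in the macrophages.

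Cd9, which takes part in cell motility and in the fusion of sperm and egg and also restrains the fusion of macrophages, was the largest difference of the group in FPKM. It was 295 FPKM in the F4/80-negative cells and 133 FPKM in the macrophages, a 2.21-fold lower level, with an adjusted p of 0.000999 (Cuffdiff, the authors' deposited table). That is the smallest adjusted p the deposited values allow, and it is shared by 847 transcripts. Cd9 has 1 transcript in the table and lies on chromosome 6, 125460266 to 125494760 (GRCm38). Among the 13039 tested genes its level ranked 276th in the F4/80-negative cells and 596th in CD301b macrophages. Gene models on the opposite strand overlap 12 of the members, and in Cd9 the antisense gene Gm28809 covers 3316 bases, so reads of the pair may not be separated. Cd81, whose protein is 46.9% identical to that of Cd9, was 56.3 FPKM in the F4/80-negative cells and 65.6 FPKM in the macrophages, not past the threshold. The ratio of Cd9 to Cd81 was 5.25 in the F4/80-negative cells and 2.03 in CD301b macrophages.

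Cd37, a tetraspanin confined to leukocytes that holds the fungal receptor Dectin-1 at the surface, was 42.6 FPKM in the F4/80-negative cells and 89.3 FPKM in the macrophages, 2.10-fold higher. The call rested on its most abundant transcript, which was 28.2 against 61.4 FPKM and had an adjusted p of 0.0316 (Cuffdiff, the authors' deposited table). A second transcript, at 14.0 and 26.6 FPKM, went the same way without passing the threshold. The first codes for a protein of 281 residues and the second for one of 303. Cd37 (chromosome 7, 45233632 to 45239340) was no longer past the threshold at an adjusted p of 0.01. Its partner Dectin-1, encoded by Clec7a, went the other way and was 220 FPKM in the F4/80-negative cells and 110 FPKM in the macrophages.

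Tspan32, also called TSSC6, is a tetraspanin of blood cells that limits T cell responses, and it had the largest ratio among the called members. It was 7.10 FPKM in the F4/80-negative cells and 17.1 FPKM in the macrophages, 2.41-fold higher. It has 4 transcripts in the table, and they did not all move alike. The transcript for the protein of 256 residues went from 3.76 FPKM in the F4/80-negative cells to 8.64 FPKM in the macrophages and alone passed the threshold, with an adjusted p of 0.000999 (Cuffdiff, the authors' deposited table). The transcript for the 167-residue form was 1.57 FPKM in the F4/80-negative cells and 6.87 FPKM in the macrophages. Its ratio was 4.38, larger than that of the called transcript, and it was still not past the threshold. The 201-residue form was level, at 1.60 FPKM in both populations. The gene spans 143004907 to 143019486 of chromosome 7 in RefSeq. In the GENCODE annotation 33.1 kb separate it from Cd81, with no coding gene between them. The antisense gene Tspan32os covers 2988 bases of it.

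Cd151 binds the laminin-binding integrins and was 28.3 FPKM in the F4/80-negative cells and 40.3 FPKM in the macrophages, a ratio of 1.42. Its main transcript was 16.7 against 29.7 FPKM, with an adjusted p of 0.00258 (Cuffdiff, the authors' deposited table). A second transcript was 8.79 and 6.94 FPKM, in the other direction and not past the threshold. All 3 Cd151 transcripts code for the same protein of 253 residues, by their GENCODE models, so the opposed transcripts differ outside the coding sequence. Of the partner integrin genes, Itga6 was also higher, at 11.0 FPKM in the F4/80-negative cells and 19.6 FPKM in the macrophages. Itga3 was 1.17 and 0.684 FPKM and Itgb1 was 119 and 133 FPKM in the same order, and neither was past the threshold.

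Cd53, found on nearly all leukocytes, was 190 FPKM in the F4/80-negative cells and 244 FPKM in the macrophages. Its adjusted p was 0.258 (Cuffdiff, the authors' deposited table). Cd53 was second to Cd9 among the members in the F4/80-negative cells, and the order of the pair was reversed in CD301b macrophages. Cd82, a suppressor of metastasis that also associates with MHC class II, was 31.9 FPKM in the F4/80-negative cells and 33.5 FPKM in the macrophages. Behind that near equality its transcripts differed in share. The main one made up 58.9% of Cd82 in the F4/80-negative cells and 83.6% in CD301b macrophages, and another went from 11.4% to 0.00318%. None of the 4 tested Cd82 transcripts was past the threshold. All 7 code for the same 266 residues.

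**Figure D2:**
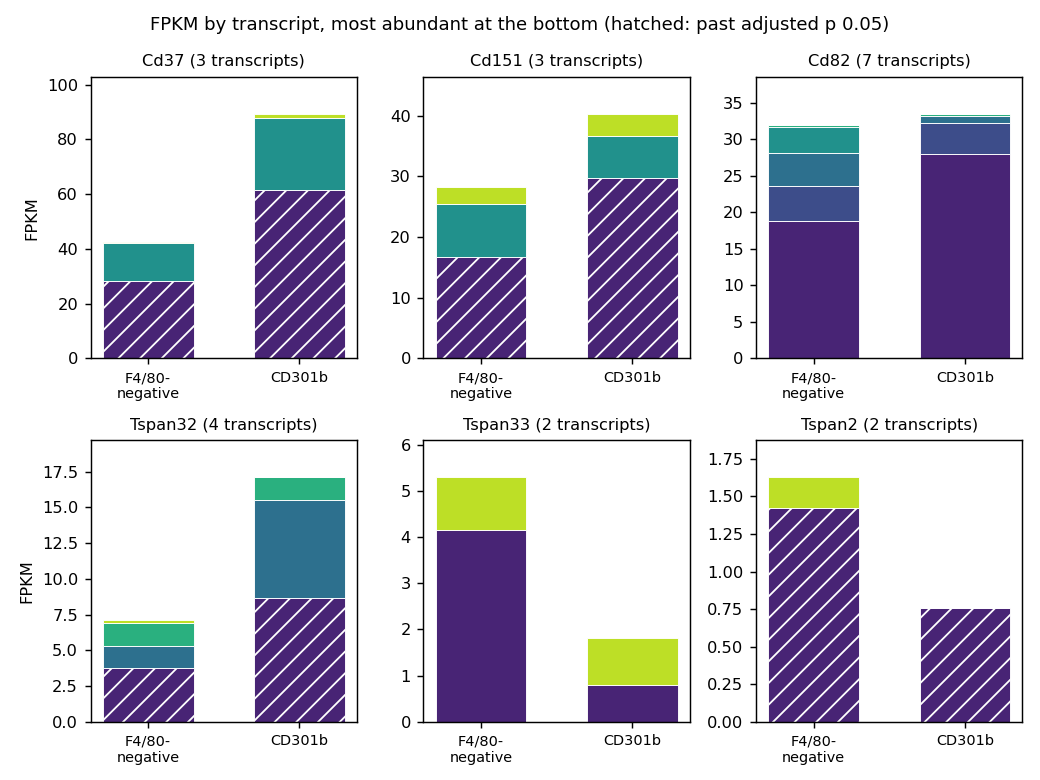
FPKM (vertical axis, linear and starting at 0) of each transcript of 6 tetraspanin genes, stacked within the F4/80-negative cells and CD301b macrophages, the most abundant transcript at the bottom and hatched where it passed an adjusted p of 0.05. The called transcript is the bottom one in Cd37, Cd151, Tspan32 and Tspan2, and no transcript of Cd82 or Tspan33 is hatched.

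The TspanC8 group, of 6 members, escorts the sheddase ADAM10 out of the endoplasmic reticulum and helps to choose its substrates. None of the 5 tested was past the threshold, beside 11.0% higher and 6.20% lower among all tested genes. In so few genes that says little about the group. Tspan14 was the most abundant, at 46.9 FPKM in the F4/80-negative cells and 55.9 FPKM in the macrophages. Tspan17 was 8.19 and 10.4 FPKM and Tspan5 was 8.15 and 8.30 FPKM in the same order. These 2 had the most similar proteins of the family, with 79.1% of residues identical. Tspan33, known from B cells and erythroid cells, had the largest ratio of the group, at 5.30 FPKM in the F4/80-negative cells and 1.81 FPKM in the macrophages. Its main transcript carried this, at 4.15 and 0.792 FPKM, with an unadjusted p of 0.1966 in the authors' deposited Cuffdiff table and an adjusted p of 0.425. The Tspan33 sum was 2.92-fold lower, a larger ratio than that of the called Cd9, and cannot be called different. Tspan15 (0.702 and 0.490 FPKM) and Tspan10 (0.0310 and 0.0592 FPKM, not tested) were under 1 FPKM. Adam10 itself was 29.3 FPKM in the F4/80-negative cells and 41.8 FPKM in the macrophages, with an adjusted p of 0.0644 (Cuffdiff, the authors' deposited table).

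Among the other Tspan genes, Tspan4, a tetraspanin of migrasomes, the vesicles that migrating cells leave on their retraction fibres, was higher in CD301b macrophages. It was 23.3 FPKM in the F4/80-negative cells and 45.1 FPKM in the macrophages, 1.94-fold higher, with an adjusted p of 0.000999 (Cuffdiff, the authors' deposited table). All of this came from 1 transcript, and the other was listed at 0 in both. Tspan4 lies on chromosome 7, 141475236 to 141493427 in RefSeq. In the GENCODE annotation it starts 3.77 kb beyond the end of Cd151, with 1 coding gene between them. Both neighbours were higher in CD301b macrophages. Tspan4 shares 292 bases with Chid1 on the opposite strand, and strand-specific counting is not recorded in the labels.

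Tspan13 was lower in CD301b macrophages, at 34.8 FPKM in the F4/80-negative cells and 15.5 FPKM in the macrophages. The 2.25-fold difference was close to that of Cd9 and had the same adjusted p of 0.000999 (Cuffdiff, the authors' deposited table). Tspan13 lies on chromosome 12, 36014555 to 36042478. Its closest relative in the family, Tspan31, has 57.4% of residues in common with it and was 75.0 FPKM in the F4/80-negative cells and 87.3 FPKM in the macrophages, not past the threshold. Tspan31 shares 641 bases with Cdk4 on the opposite strand. Tspan2, which is best known from oligodendrocytes, was low in both populations, at 1.63 and 0.757 FPKM in that order, and was called lower with an adjusted p of 0.0219 (Cuffdiff, the authors' deposited table). Tspan2 (chromosome 3, 102734770 to 102772310) lost its call at an adjusted p of 0.01, and its gene overlaps Tshb and Tspan2os on the opposite strand.

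The remaining members above 1 FPKM were not past the threshold. Tspan3 was 61.2 FPKM in the F4/80-negative cells and 86.0 FPKM in the macrophages, with an adjusted p of 0.0887 (Cuffdiff, the authors' deposited table). Between 1 and 10 FPKM, 7 members had lower values in CD301b macrophages without being called. Tspan6 was 7.86 FPKM in the F4/80-negative cells and 5.17 FPKM in the macrophages, and Tspan7 was 7.88 and 5.53 FPKM. Tspan9, a tetraspanin of platelets, was 4.42 and 2.80 FPKM in the same order, and Tspan11 was 4.57 and 3.29 FPKM. Tspan18, known from endothelium, was 3.94 and 2.88 FPKM, and Tspan12, a part of Norrin and Frizzled signalling in vessels, was 1.71 and 1.17 FPKM. Tspan33, described above, was the other of the 7. Tspan9 had the lowest adjusted p of them, at 0.0631 (Cuffdiff, the authors' deposited table).

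The direction of the summed FPKM was also counted by level. Of 13 members that reached 10 FPKM in a population, 11 had the higher sum in CD301b macrophages, beside 61.3% of 6088 tested genes at that level. Of 10 members between 1 and 10 FPKM, 2 had the higher sum in CD301b macrophages, beside 53.3% of 5840 tested genes. When each population was divided by the level of its median gene, the counts were 10 of 13, beside 53.5% of all tested genes at that level, and 0 of 10, beside 46.9%. This division by level was made after the values were seen, most of these differences are not past the threshold, and no test was run on it. Level was taken from the larger of the 2 sums, so the level and the direction rest on the same values. Tspan32 (17.1 FPKM in CD301b macrophages, 7.10 FPKM in the other population) and Tspan17 (10.4 and 8.19 FPKM) reached 10 FPKM in CD301b macrophages alone. Both are among the 11, and no member reached 10 FPKM in the other population alone.

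**Figure D3:**
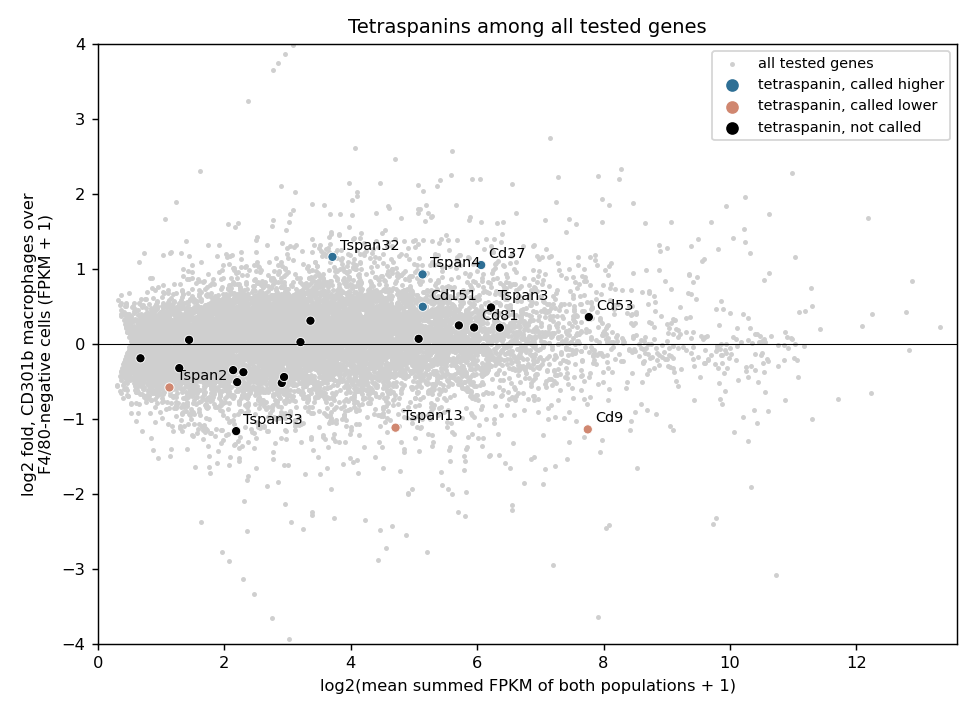
Log2 fold of summed FPKM, CD301b macrophages over the F4/80-negative cells with 1 FPKM added (vertical axis), against log2 of the mean FPKM of both populations plus 1 (horizontal axis), for all tested genes (grey) and the 24 tested tetraspanins (blue called higher, orange called lower, black not called); 59 genes lie outside the vertical range. Cd9 and Cd53 have nearly the same mean level and lie on opposite sides of 0, and the uncalled Tspan33 lies beside the called Tspan13 in fold but at a lower level.

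The tetraspanins of specialised epithelia and of the eye were near 0. Upk1a and Upk1b, of the bladder lining, were 0.282 and 0.0993 FPKM in the F4/80-negative cells and 0.117 FPKM and listed at 0 in CD301b macrophages, and neither was tested. Of the uroplakin partner genes, Upk2 was 0.0578 FPKM in the F4/80-negative cells and listed at 0 in the macrophages. Upk3a and Upk3b were listed at 0 in both populations. Prph2, which shapes the discs of photoreceptors, was 0.0115 FPKM in the F4/80-negative cells and 0.0132 FPKM in the macrophages. Its partner Rom1 was 1.67 and 1.77 FPKM in the same order and was not past the threshold. Tspan1 (0.0103 and 0.0329 FPKM) and Tspan8 (0.513 and 0.208 FPKM), of epithelia, were not tested. In all, 8 of the 31 symbols were under 1 FPKM in both populations.

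Most pairs of member proteins were only distantly alike, while a few were close, up to 79.1% identity for Tspan5 and Tspan17. Translated from the GENCODE transcripts, all 30 proteins held Cys-Cys-Gly at some position and were 204 to 351 residues long, with a median of 253. Whether the motif lay in the large loop was not checked. Its first match was at residue 15 in Tspan17 and at residue 76 in Cd9. Over the 435 pairs the median identity, relative to the shorter protein, was 27.1%. Gaps at the ends of an alignment cost nothing, and the lowest identity was 0.391%. How many distant pairs were aligned over a short stretch alone was not counted. Close relatives did not always share a call. Tspan4 and Tspan9 have 55.9% of residues in common, and Tspan4 was higher while Tspan9 was not past the threshold. Cd151 and Tspan11 have 55.7% in common, and Cd151 was higher while Tspan11 was not past the threshold. Cd9 and Tspan2, at 46.5%, were both lower. Whether the folds of such pairs differ was not tested.

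The known partners of tetraspanins moved in several directions. Of 10 adhesion and surface partners, Itga6 and Cd36 were higher in CD301b macrophages and Epcam was lower, beside 11.0% higher and 6.20% lower among all tested genes. Cd36, a scavenger receptor that associates with CD9 and CD81 on macrophages, was 82.2 FPKM in the F4/80-negative cells and 143 FPKM in the macrophages. Igsf8 and Ptgfrn, immunoglobulin proteins that bind CD9 and CD81 directly, were 32.0 and 18.4 FPKM in the F4/80-negative cells and 29.0 and 15.2 FPKM in the macrophages, and neither was past the threshold. Epcam, which joins tetraspanin patches in epithelia, was 3.51 FPKM in the F4/80-negative cells and was 3.51-fold lower. Cd44, the hyaluronan receptor, was 218 and 187 FPKM and was not past the threshold.

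Among 6 tested immune receptor partners, 5 were lower in CD301b macrophages and 1 was higher, beside the same shares of all tested genes. Besides Clec7a, the lower members were Ifitm1, a partner of CD81, at 361 FPKM in the F4/80-negative cells and 132 FPKM in the macrophages, and the MHC class II genes H2-Aa (4170 and 2497 FPKM), H2-Ab1 (3370 and 1676 FPKM) and H2-Eb1 (1572 and 799 FPKM). The higher member was Cd4, whose protein binds CD81 and CD82, at 4.92 and 18.6 FPKM. Cr2, a complement receptor of B cells that joins CD81, was at 0.0120 FPKM in the F4/80-negative cells and was not tested. Of 8 tested genes of ADAM10 and its substrates, App was higher, at 179 FPKM in the F4/80-negative cells and 265 FPKM in the macrophages. Cdh1 (9.19 and 2.52 FPKM) and Cx3cl1 (1.72 and 0.689 FPKM) were lower. The shares of all tested genes given above, 11.0% and 6.20%, apply here too. Cxcl16 was 99.6 and 136 FPKM and Notch2 was 27.7 and 30.8 FPKM, neither past the threshold. None of 8 tested genes of secreted vesicles was called, beside the same shares of all tested genes. Cd63 was 494 FPKM in the F4/80-negative cells and 616 FPKM in the macrophages, above every member of the family in both. Sdcbp, which encodes the exosome adaptor syntenin, was 364 and 535 FPKM in the same order, with an adjusted p of 0.0537 (Cuffdiff, the authors' deposited table).

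**Figure D4:**
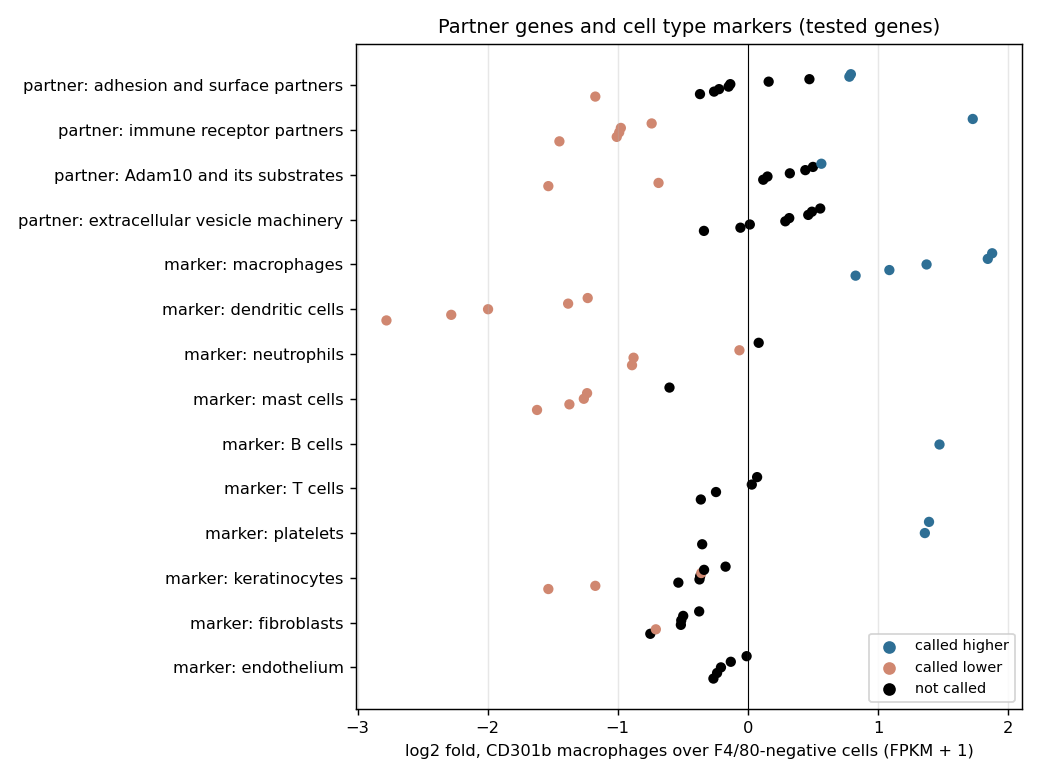
Log2 fold of summed FPKM with 1 FPKM added, CD301b macrophages over the F4/80-negative cells (horizontal axis), of each tested gene in the lists of tetraspanin partners and of cell type markers (1 line a list, small vertical shifts only separate points; blue called higher, orange called lower, black not called). Immune receptor partners lie mostly to the left with Cd4 alone on the right, and no vesicle gene is called.

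Markers of other cell types differed from list to list. The counts below stand beside 11.0% higher and 6.20% lower among all tested genes. All 5 dendritic cell markers were lower in CD301b macrophages, with a summed level of 228 FPKM in the F4/80-negative cells and 56.0 FPKM in the macrophages and none at 0. Of 5 mast cell markers 4 were lower (48.4 and 16.8 FPKM in all, none at 0). Of 8 keratinocyte markers 3 were lower (207 and 159 FPKM in all), namely Cdh1, Epcam and Dsg3, while no keratin of the list was called. Of 6 fibroblast markers 1 was lower (6197 and 4200 FPKM). Of 4 tested neutrophil markers 3 were lower (3847 and 2125 FPKM in all). S100a8 (1725 and 938 FPKM) and S100a9 (2025 and 1092 FPKM) made up most of that difference. The third, Csf3r, was nearly level at 71.3 and 68.1 FPKM, and the uncalled Cxcr2 was 25.7 and 27.3 FPKM. None of 5 endothelial markers was called (53.8 and 49.9 FPKM). Cd9, Tspan13 and Tspan2 were lower beside these lists, and the part of such cells in their values was not tested. For Cd37, known from B cells, 4 B cell markers summed to 6.51 FPKM in the F4/80-negative cells and 18.5 FPKM in the macrophages. Nearly all of this was Cd79b, which was higher in CD301b macrophages (5.88 and 18.0 FPKM), while Ms4a1 was 0.116 and 0.120 FPKM. Of 4 tested T cell markers none was called (7.73 and 7.01 FPKM for the 5 markers in all). Of 5 platelet markers (435 and 1139 FPKM in all), Pf4 and Ppbp were higher in CD301b macrophages (399 and 34.7 FPKM in the F4/80-negative cells, 1048 and 90.6 FPKM in the macrophages). The platelet receptor genes Itga2b (0.929 and 0.512 FPKM), Gp1bb (0.588 and 0.379 FPKM) and Gp9 (0.0719 FPKM and listed at 0) were all under 1 FPKM.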

How the data were processed

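RNA was sequenced from mRNA libraries of the 2 sorted populations, 2 libraries each. Per the submitters' processing notes the authors used TopHat2 2.0.2 and Cuffdiff 2.0.2 and named the build mm9; the table's loci of all 50 member transcripts overlapped the same RefSeq genes on GRCm38.p6, whose positions are printed. Per the file headers, the authors deposited 1 FPKM per transcript and population and an unadjusted p-value; the sources used here do not say how libraries were combined or reads counted. FPKM times length gave 12691 distinct values (5 significant digits) in 13044 genes with 1 transcript, so no read counts could be recovered. The deposited calls equalled a Benjamini-Hochberg adjustment at 0.05 in all 34535 transcripts. In 56 transcripts a symbol turned into a date was restored. Folds use log2(FPKM + 1); ratios use summed FPKM. The calling code was tested on simulated data. Proteins were compared by BLOSUM62 alignment (gap costs 10 and 1, gaps at the ends free) of GENCODE M21 coding sequences. Promoters and gene spans are from RefSeq, and overlaps and distances between genes are from GENCODE M21.

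The members and lists were chosen with earlier results of these data known. Every member at 1 FPKM or more, every called gene of a partner list and up to 2 abundant uncalled ones were to be named, and a few further partners were named after their values were seen. One gene of the lists is not reported here and was left out of their sums. Alternatives were a stricter threshold, other pseudocounts, a filter on low values, the main transcript alone, median scaling and a minimum fold. Python 3.11.15, pandas 2.3.3, numpy 2.4.6, scipy 1.17.1 and Biopython 1.88 were used.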

Additional observations from a re-analysis of the deposited data

How the results depend on the processing

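The 7 called tetraspanins were the same with the most abundant transcript alone, with transcripts at 1 FPKM or more and with median scaling. At an adjusted p of 0.01, 3 remained higher (Cd37 lost) and 2 remained lower (Tspan2 lost), while the calls over all genes went from 1432 higher and 808 lower to 848 and 461. With a fold of at least 1.5 on the log2(FPKM + 1) scale, 3 remained higher (Cd151 lost) and 2 lower (Tspan2 lost), with 1047 higher and 622 lower over all genes. The median log2 fold of the members lay near 0 in each setting: 0.0537 as reported, 0.0691 with a pseudocount of 0.1, 0.0125 with a pseudocount of 10, 0.00247 over all 31 symbols and -0.0152 with median scaling. Scaling shifted the ratios by -0.09 (log2) and turned the sign of 3 uncalled members, Cd82 (-0.0152), Tspan5 (-0.0517) and Rom1 (-3.4e-05). No other member at 1 FPKM or more changed sign under the pseudocounts, the main transcript alone or median scaling. With the main transcript alone none of these members changed call either. Apart from those with a minimum fold, the calls use no pseudocount, so a pseudocount could not change them. Under the minimum fold it matters at low levels. The log2 fold of Tspan2, lost there, was -0.581 with a pseudocount of 1 and -1.01 with a pseudocount of 0.1. Median scaling kept the deposited p-values and could change a call only by turning the direction of a sum, so the equal calls there say little. No paired analysis was possible because the table gives 1 value per population and no values per library, and for the same reason no library could be left out. Depth is unknown, so how far it limits the members near 1 FPKM was not tested.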
